A study of Mus musculus with 6 samples.

Results

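The vascular endothelial growth factor (VEGF) ligands and their receptors were examined in the RNA of mouse hearts at embryonic day (E) 9.5, in 3 *Smyd1-KO* and 3 WT hearts. The set has 9 genes, taken by symbol from the 54532 genes of the table of raw counts: the ligand genes *Vegfa*, *Vegfb*, *Vegfc* and *Pgf*, the receptor tyrosine kinase genes *Flt1*, *Kdr* and *Flt4*, and the co-receptor genes *Nrp1* and *Nrp2*. All 9 were found and all 9 passed the filter on low counts, together with 19372 genes in all. *Smyd1* encodes a histone methyltransferase of striated muscle. By the study's description, *Smyd1-KO* embryos carry 2 mutated copies of *Smyd1* in every cell and do not survive the following day of development, so the hearts compared are whole hearts taken shortly before death and whole hearts of WT embryos. Each library came from the heart of a single embryo, no embryo received a treatment, and litters were not given in the sources used here.

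VEGF ligands are secreted proteins that bind receptor tyrosine kinases on endothelial cells, the cells that line blood vessels and, as endocardium, the inside of the heart. VEGF-A is the main signal for the growth and survival of these cells and acts through the receptor encoded by *Kdr* (VEGFR2). The product of *Flt1* (VEGFR1) binds VEGF-A tightly but signals weakly, and it also exists as a soluble form, so that it is known as a trap for the ligand. Among the receptor tyrosine kinases, VEGF-B and placental growth factor (*Pgf*) bind VEGFR1 only. VEGF-C acts mainly through the product of *Flt4* (VEGFR3), which is known best for lymphatic vessels but is also made by early blood vessels and endocardium. Neuropilins are co-receptors that bind VEGFs and class 3 semaphorins. In the embryonic heart, *Vegfa* is made largely by myocardium and its level there is known to matter in both directions, since loss and modest excess each disturb the heart.

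Transcript starts of the 4 genes on which the results turn are given here as the 250 bases before the start in RefSeq (build GRCm38.p6, the same sequence build as mm10), 5′ to 3′ on the gene's own strand. Capitals mark the core of the hypoxia-response element that hypoxia-inducible factors (HIF) bind, searched as ACGTG or GCGTG on both strands.
*Vegfa* (chr17:46032378-46032627, minus strand): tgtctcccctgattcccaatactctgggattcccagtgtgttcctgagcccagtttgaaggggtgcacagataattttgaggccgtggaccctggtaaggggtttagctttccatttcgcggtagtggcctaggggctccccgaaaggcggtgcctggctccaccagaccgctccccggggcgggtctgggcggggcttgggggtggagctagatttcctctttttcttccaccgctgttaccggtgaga
*Vegfb* (chr19:6987652-6987901, minus strand): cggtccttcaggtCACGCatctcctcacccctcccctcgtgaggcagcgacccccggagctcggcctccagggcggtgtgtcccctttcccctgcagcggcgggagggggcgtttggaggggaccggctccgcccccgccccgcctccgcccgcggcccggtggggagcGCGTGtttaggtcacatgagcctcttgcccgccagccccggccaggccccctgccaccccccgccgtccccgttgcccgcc
*Flt1* (chr5:147726012-147726261, minus strand): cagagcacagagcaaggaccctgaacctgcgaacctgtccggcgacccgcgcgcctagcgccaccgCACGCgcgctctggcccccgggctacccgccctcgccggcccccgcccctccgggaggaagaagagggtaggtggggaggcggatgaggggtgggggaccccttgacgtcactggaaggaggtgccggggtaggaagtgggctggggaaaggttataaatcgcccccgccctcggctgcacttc
*Kdr* (chr5:75978456-75978705, minus strand): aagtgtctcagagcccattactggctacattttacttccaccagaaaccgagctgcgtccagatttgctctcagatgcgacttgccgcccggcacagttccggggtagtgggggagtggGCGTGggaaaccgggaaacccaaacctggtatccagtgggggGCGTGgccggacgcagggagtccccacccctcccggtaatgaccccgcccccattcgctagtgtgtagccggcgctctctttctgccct
The window of *Vegfa* held no such core, and those of *Vegfb*, *Flt1* and *Kdr* held 2, 1 and 2. In *Vegfb* the cores began 237 and 81 bases before the start, in *Flt1* 184 bases before it, and in *Kdr* 131 and 89 bases before it. RefSeq gave 11 windows for the 9 genes, because *Vegfa* and *Pgf* each have a further start, and 7 of the 11 held a core. The further start of *Vegfa* lies inside the gene (chr17:46025164-46025413 for the window), and its window held 2 cores, 218 and 211 bases before the start. A core was also found in 38.6% of the windows of this length for all 32851 RefSeq transcript starts, so it is a common run of letters. Bases outside the 250 of each window were not searched, so a window without a core does not show that the gene lacks one. The presence or absence of a core here is a description only. The *Flt1* window also held a TATA box (TATAAA), present in 12.37% of all windows, and a full cyclic AMP response element (TGACGTCA), present in 1.55%.

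The libraries held 48627825 to 64217529 counts on genes and each of the 9 genes was measured with 394 to 27132 counts per heart. Levels are given as CPM, counts per 1000000 counts of a library scaled with edgeR's TMM factors. *Smyd1* itself lay at 101 to 222 CPM in the *Smyd1-KO* hearts, against 270 to 414 CPM in the WT hearts (log2 fold change -1.01, standard error 0.300, adjusted *P*=0.0973 by edgeR). The *Smyd1-KO* libraries thus held less *Smyd1* RNA, with no overlap, but the transcript was not absent, and the fall did not pass the threshold. *Smyd1-KO* heart 1 stood apart: its 18 cardiomyocyte markers summed to 11614 CPM, against 23775 and 23882 CPM in the other *Smyd1-KO* hearts and 15291 to 25571 CPM in WT hearts. Results that rest on this heart are given with and without it.

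The question was whether the RNA of the VEGF ligands and receptors differs between *Smyd1-KO* and WT hearts. *Vegfa*, *Vegfb* and *Flt1* were upregulated, at 2.71, 1.60 and 2.21 times the WT level. *Vegfc*, *Kdr* and *Flt4* were also higher in every *Smyd1-KO* heart than in any WT heart but did not pass the test, and *Pgf*, *Nrp1* and *Nrp2* overlapped between the genotypes. A gene was called at an adjusted *P* under 0.05 by edgeR's quasi-likelihood test, adjusted over the 19372 tested genes, and a log2 fold change of 0.5 or more in size. By this rule 3 of the 9 genes were upregulated, where 2.86% of all tested genes were. None was downregulated, where 1.42% of all tested genes were, and none had an unadjusted *P* under 0.05 in that direction, by edgeR, DESeq2 or limma voom on all 6 hearts. Over both directions, 4.28% of all tested genes were called. In 6 of the 9 genes the genotypes did not overlap, all with the *Smyd1-KO* hearts higher, which held for 15.9% of all tested genes. The *Smyd1-KO* hearts were lower without overlap in none of the 9, against 15.5% of all tested genes, so that 31.3% of all tested genes did not overlap in either direction. The median log2 fold change of the 9 was 0.68, and that of all tested genes was -0.0026.

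The counts of calls depended on single hearts. Without *Smyd1-KO* heart 1, 4 of the 9 genes were called, *Kdr* being the addition. Without *Smyd1-KO* heart 2 only *Vegfa* was called, and without WT heart 2 or WT heart 3 none of the 9 was called by edgeR. In the fits without WT heart 2 or WT heart 3, 6 and 7 of the 9 were higher at an unadjusted *P* under 0.05 by edgeR. On all 6 hearts 13.1% of all tested genes were higher at that level, and the share with a heart left out is not given here. Without *Smyd1-KO* heart 3, *Vegfa* and *Flt1* were called, and without WT heart 1, *Vegfa* and *Vegfb*. The number of calls over all tested genes moved with the same hearts. It was 830 with all hearts, 1256, 248 and 344 without *Smyd1-KO* heart 1, 2 and 3, and 501, 97 and 171 without WT heart 1, 2 and 3. DESeq2 called 5 of the 9 genes on all 6 hearts, all upregulated, where it called 5.98% of the genes it tested as upregulated and 9.29% in either direction.

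**Figure D1:**
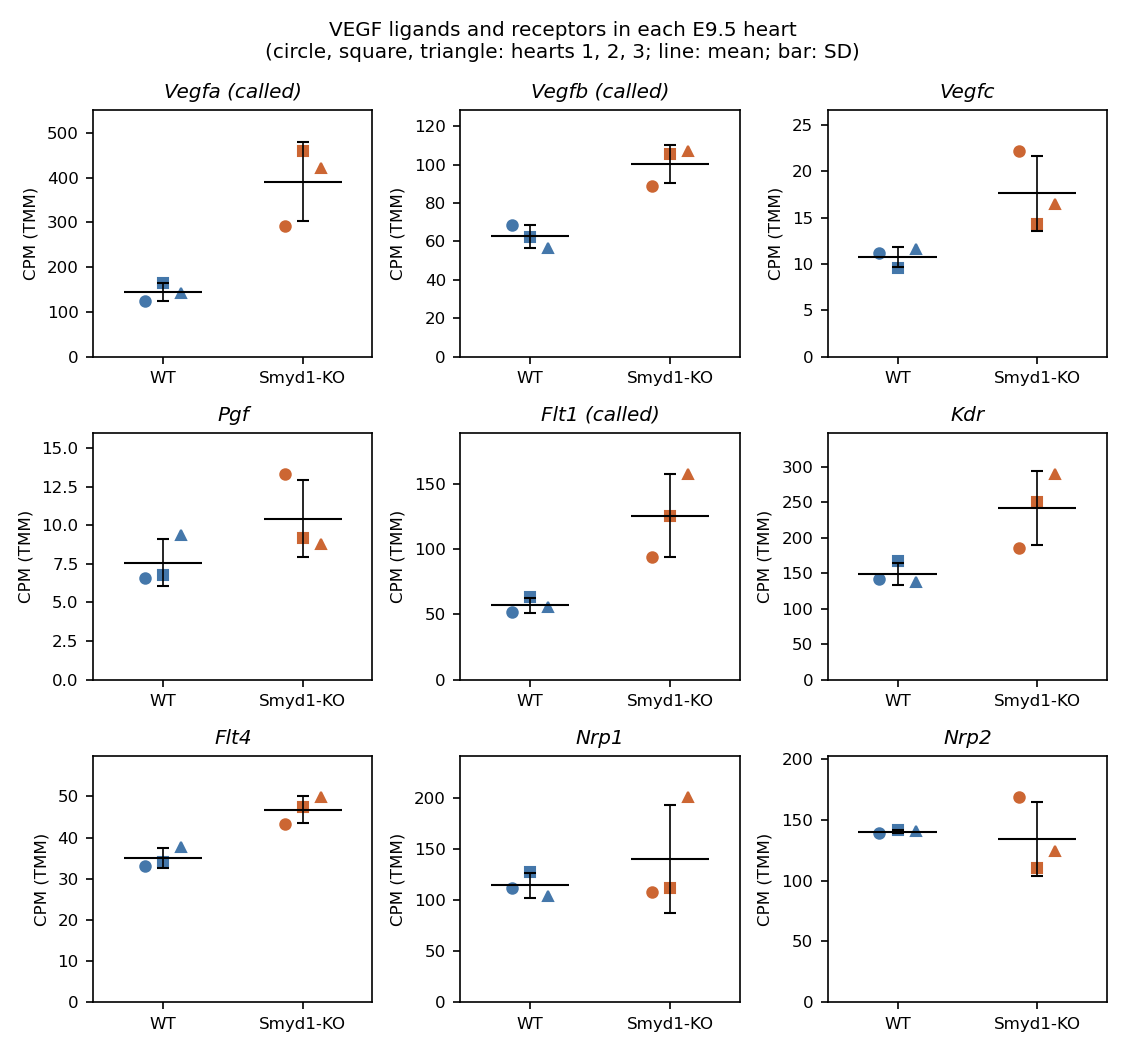
CPM (y axis, scaled with TMM factors) of the 9 genes in the 3 WT hearts (blue) and the 3 *Smyd1-KO* hearts (orange), with the mean as a line and the SD as a bar. The *Smyd1-KO* hearts lie above all WT hearts for *Vegfa*, *Vegfb*, *Vegfc*, *Flt1*, *Kdr* and *Flt4*, and the genotypes overlap for *Pgf*, *Nrp1* and *Nrp2*.

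*Vegfa* (ENSMUSG00000023951, chr17:46016993-46032369, minus strand) showed the greatest change of the set. *Smyd1-KO* hearts 1, 2 and 3 had 293, 459 and 423 CPM, and WT hearts 1, 2 and 3 had 125, 165 and 143 CPM. The lowest *Smyd1-KO* heart was heart 1, and it was still well above the highest WT heart. The *Smyd1-KO* mean of 391 ± 87.4 CPM stood against a WT mean of 145 ± 19.9 CPM (SD, n = 3 each), a log2 fold change of 1.44 (standard error 0.186, 95% interval 1.0 to 1.87, adjusted *P*=0.0105 by edgeR). Among all tested genes, 3.31% had a greater absolute log2 fold change than *Vegfa*. The adjusted *P* was 0.0522 by edgeR without WT heart 2 and 0.0643 without WT heart 3, while the log2 fold change stayed between 1.31 and 1.61 whichever heart was left out. GENCODE lists 13 *Vegfa* transcripts, 8 of them protein coding. Counts per gene do not separate these, and so do not show which VEGF-A isoform changed.

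*Vegfb* (ENSMUSG00000024962, chr19:6982473-6987651, minus strand), whose product binds VEGFR1 and not VEGFR2, changed less than *Vegfa* but with little scatter. *Smyd1-KO* hearts 1, 2 and 3 had 88.9, 105 and 107 CPM, and the WT hearts 68.6, 62.5 and 56.6 CPM. All *Smyd1-KO* hearts were above all WT hearts, and the gap between the closest hearts was 88.9 against 68.6 CPM. The means of 100.4 ± 10.0 and 62.6 ± 5.99 CPM (SD, n = 3 each) gave a log2 fold change of 0.68 (standard error 0.107, 95% interval 0.43 to 0.93, adjusted *P*=0.0187 by edgeR). The adjusted *P* by edgeR rose to between 0.0565 and 0.104 when *Smyd1-KO* heart 2, *Smyd1-KO* heart 3, WT heart 2 or WT heart 3 was left out, with log2 fold changes from 0.62 to 0.76 over all hearts left out.

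*Vegfc* (ENSMUSG00000031520, chr8:54077606-54187096, plus strand), the ligand of VEGFR3, had a fold change like that of *Vegfb* at a much lower level. *Smyd1-KO* hearts 1, 2 and 3 had 22.2, 14.3 and 16.4 CPM, and the WT hearts 11.1, 9.55 and 11.6 CPM. The hearts did not overlap, but *Smyd1-KO* heart 1 was far above the other *Smyd1-KO* hearts, which widened the error. The log2 fold change was 0.71 (standard error 0.184, 95% interval 0.28 to 1.14) and the adjusted *P* was 0.0702 by edgeR and 0.00501 by DESeq2. Without *Smyd1-KO* heart 1 it was 0.51 (adjusted *P*=0.0784 by edgeR).

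*Pgf* (ENSMUSG00000004791, chr12:85166635-85177790, minus strand), the other ligand of VEGFR1, was the lowest of the 9 genes. The *Smyd1-KO* hearts had 13.3, 9.17 and 8.81 CPM, the WT hearts 6.61, 6.77 and 9.37 CPM. WT heart 3 was above *Smyd1-KO* hearts 2 and 3, so the genotypes overlapped. The log2 fold change was 0.46 with a 95% interval from -0.065 to 0.98 (adjusted *P*=0.252 by edgeR), which leaves room for no change as well as for a change as large as that of *Vegfc*, and it was 0.25 without *Smyd1-KO* heart 1. The remaining VEGF ligand gene, *Vegfd*, which is not among the 9, was barely detected, with 1.43 ± 0.779 CPM against 1.39 ± 0.342 CPM in WT (SD, n = 3 each).

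Among the receptors, *Flt1* (ENSMUSG00000029648, chr5:147561604-147726011, minus strand) was the gene called. *Smyd1-KO* hearts 1, 2 and 3 had 94.4, 125 and 158 CPM, and the WT hearts 52.1, 63.2 and 55.4 CPM. The *Smyd1-KO* hearts were spread widely, heart 1 lowest and heart 3 highest, and all lay above the WT hearts, which were close together. The means were 126 ± 31.6 and 56.9 ± 5.71 CPM (SD, n = 3 each), a log2 fold change of 1.15 (standard error 0.182, 95% interval 0.72 to 1.57, adjusted *P*=0.0192 by edgeR). A greater absolute log2 fold change was found for 5.51% of all tested genes. The adjusted *P* by edgeR was 0.0620 without *Smyd1-KO* heart 2 and 0.0640, 0.0858 and 0.0882 without WT heart 1, 2 and 3, with log2 fold changes from 0.95 to 1.32 over all hearts left out. GENCODE lists 6 *Flt1* transcripts, 2 of them protein coding, and counts per gene do not separate RNA for the soluble trap from RNA for the membrane receptor.

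*Kdr* (ENSMUSG00000062960, chr5:75932827-75978458, minus strand), the main signaling receptor for VEGF-A, was higher in every *Smyd1-KO* heart but just missed the threshold. *Smyd1-KO* hearts 1, 2 and 3 had 186, 250.2 and 289 CPM, and the WT hearts 142, 167 and 137 CPM. The hearts followed the same order as for *Flt1* within *Smyd1-KO*, and *Smyd1-KO* heart 1 lay close to WT heart 2. The difference was 0.70 on the log2 scale (standard error 0.167, 95% interval 0.31 to 1.09, adjusted *P*=0.0569 by edgeR). It was 0.86 without *Smyd1-KO* heart 1 (adjusted *P*=0.0104 by edgeR), and on all 6 hearts *Kdr* was called by edgeR without the filter on low counts (adjusted *P*=0.0260) and by DESeq2 (adjusted *P*=0.00217).

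*Flt4* (ENSMUSG00000020357, chr11:49609263-49652739, plus strand) had the smallest scatter of the receptor kinases. The *Smyd1-KO* hearts had 43.3, 47.3 and 49.8 CPM, the WT hearts 33.2, 34.1 and 37.7 CPM. The hearts did not overlap, and the coefficient of variation was 7.04% in *Smyd1-KO* and 6.86% in WT hearts. The log2 fold change of 0.42 (standard error 0.0924, 95% interval 0.20 to 0.64, adjusted *P*=0.0471 by edgeR) passed on the adjusted *P* but was below the fold limit of 0.5.

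On all 6 hearts, the neuropilins showed no change that could be told from the spread. *Nrp1* (ENSMUSG00000025810, chr8:128358604-128503363, plus strand), the co-receptor for VEGF-A, stood at 108, 112 and 201 CPM in the *Smyd1-KO* hearts, against 112, 128 and 104 CPM in the WT hearts. Only *Smyd1-KO* heart 3 was outside the WT range. The log2 fold change was 0.29 (95% interval -0.27 to 0.85, adjusted *P*=0.489 by edgeR), and it was -0.058 without *Smyd1-KO* heart 3. *Nrp2* (ENSMUSG00000025969, chr1:62703285-62818695, plus strand), the co-receptor known for VEGF-C, stood at 168, 111 and 124 CPM in the *Smyd1-KO* hearts, against 139, 141 and 140.4 CPM in the WT hearts. The WT hearts were almost equal, with a coefficient of variation of 0.862%, and the *Smyd1-KO* hearts lay on both sides of them, with one of 22.5%. The log2 fold change was -0.061 (95% interval -0.41 to 0.29, adjusted *P*=0.837 by edgeR), and it was 0.064 without *Smyd1-KO* heart 2 and -0.25 without *Smyd1-KO* heart 1. In the fit without *Smyd1-KO* heart 1, *Nrp2* was lower at an unadjusted *P* under 0.05 (adjusted *P*=0.107 by edgeR). The remaining *Smyd1-KO* hearts lay below all WT hearts. A change of either neuropilin as large as that of *Vegfa* lay outside its interval.

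**Figure D2:**
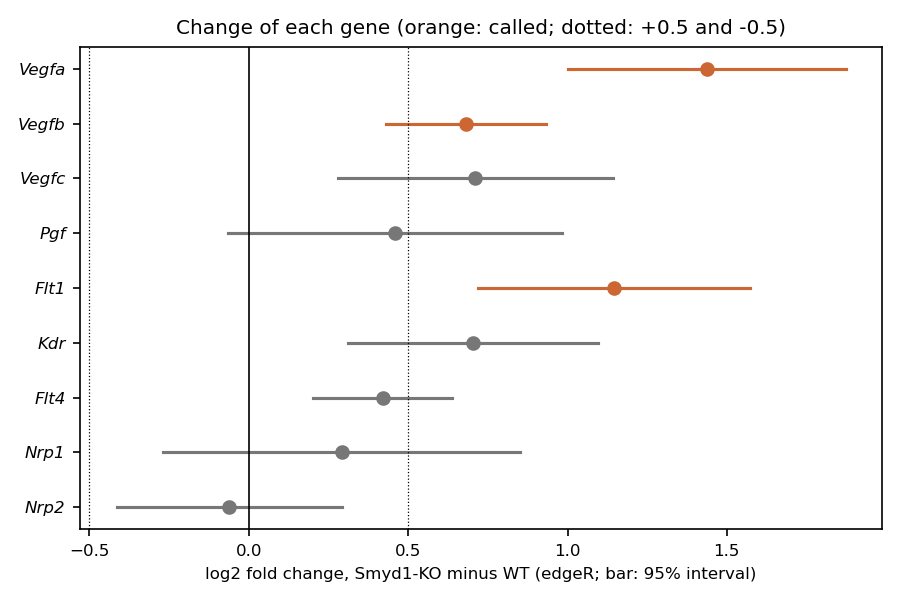
Log2 fold change between *Smyd1-KO* and WT hearts (x axis) of each of the 9 genes with its 95% interval as a bar, from edgeR on 3 hearts per genotype, with called genes in orange and dotted lines at the fold limit of 0.5 in either direction. The intervals of *Vegfa* and *Flt1* start above 0.5, that of *Vegfb* starts at 0.43, and those of *Pgf*, *Nrp1* and *Nrp2* include 0.

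Within *Smyd1-KO*, heart 1 had the lowest level of 6 of the 9 genes and the highest of the other 3, which were *Vegfc*, *Pgf* and *Nrp2*. The profiles over the 6 hearts were compared by the root-mean-square difference of log2 CPM after centering each gene on its own mean. *Kdr* and *Vegfb* had the most similar profiles of the set (0.152), followed by *Pgf* and *Vegfc* (0.190), *Flt4* and *Vegfb* (0.191) and *Flt1* and *Vegfa* (0.202). *Vegfa* and *Nrp2* differed the most (0.849). These values describe 6 hearts that share their genotypes and libraries.

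Levels can be compared between genes only per length, so CPM were divided by the exonic length of each gene in kb, from GENCODE. In WT hearts the ligands *Vegfb* and *Vegfa* were at the top, with means of 39.0 and 33.7 CPM per kb, and their hearts overlapped. *Kdr* followed at 16.5 CPM per kb, above and apart from *Nrp2* (11.8 CPM per kb) and *Nrp1* (11.7 CPM per kb), which overlapped each other. *Vegfc*, *Flt4* and *Flt1* came next at 4.40, 4.25 and 4.21 CPM per kb and could not be told apart, and *Pgf* was lowest at 2.61 CPM per kb.

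In *Smyd1-KO* hearts the order at the top was turned: *Vegfa* stood at 91.4 CPM per kb, with every heart above every value of *Vegfb*, whose mean was 62.5 CPM per kb. *Kdr* kept its place behind them at 26.8 CPM per kb, again apart from its neighbors. *Nrp1*, *Nrp2*, *Flt1*, *Vegfc* and *Flt4* followed, at means of 14.3, 11.3, 9.32, 7.20 and 5.69 CPM per kb, and each overlapped the next. *Flt1*, which in WT hearts was at the level of *Flt4*, was above it in every *Smyd1-KO* heart, at 6.99 to 11.7 against 5.26 to 6.05 CPM per kb. *Pgf* was again lowest, at 3.59 CPM per kb. Differences in how evenly reads cover each gene were not corrected.

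**Figure D3:**
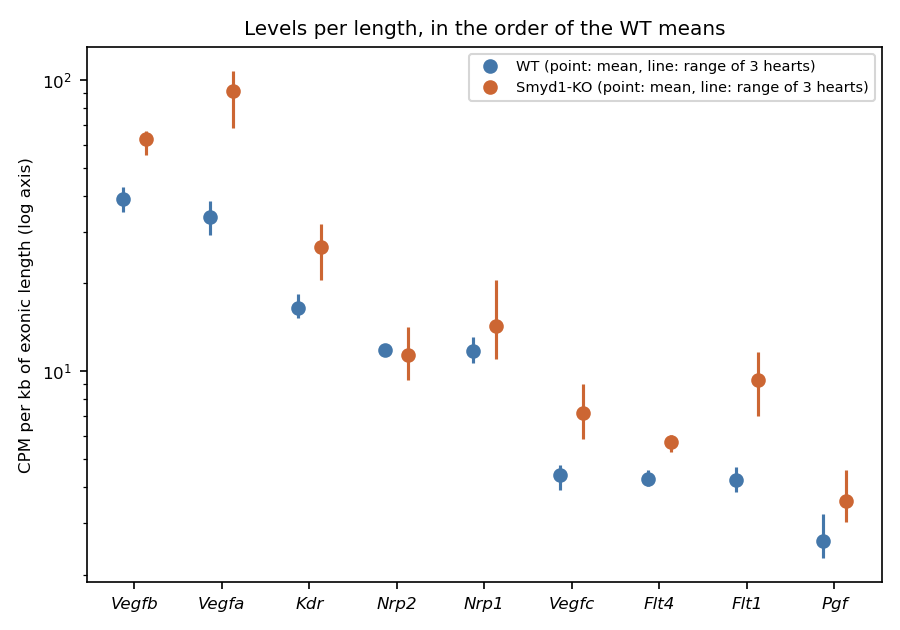
Level per exonic length (y axis, CPM per kb, log axis) of the 9 genes in WT hearts (blue) and *Smyd1-KO* hearts (orange), ordered by the WT means, with the mean as a point and the range of 3 hearts as a line. *Vegfb* and *Vegfa* overlap in WT hearts at 39.0 and 33.7 CPM per kb, and *Vegfa* is above *Vegfb* in *Smyd1-KO* hearts at 91.4 against 62.5 CPM per kb.

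The balance among the ligand and receptor genes was examined as log2 ratios of CPM within each heart, compared between genotypes with a two-sided exact permutation test. With 3 against 3 hearts this test cannot give a *P* below 0.1, and no ratio could therefore pass 0.05. Of 6 ratios, 3 did not overlap between the genotypes. The log2 ratio of *Vegfa* to *Kdr* was 0.65, 0.87 and 0.55 in *Smyd1-KO* hearts 1, 2 and 3, and -0.18, -0.015 and 0.063 in WT hearts 1, 2 and 3. All *Smyd1-KO* hearts were higher, by 0.74 on average (exact permutation *P*=0.1, 0.2 adjusted over the 6 ratios). The log2 ratio of *Flt1* to *Kdr* was -0.98, -1.0 and -0.88 in *Smyd1-KO* and -1.45, -1.40 and -1.31 in WT hearts. RNA of *Flt1*, over all its transcripts, relative to that of *Kdr* was thus higher in every *Smyd1-KO* heart, by 0.44 on average (exact permutation *P*=0.1, adjusted 0.2). The *Smyd1-KO* hearts lay close together although their levels of both genes were widely spread.

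The log2 ratio of *Vegfb* to *Vegfa* was lower in all *Smyd1-KO* hearts, at -1.72, -2.12 and -1.98 against -0.87, -1.40 and -1.34, a mean difference of -0.74 (exact permutation *P*=0.1, adjusted 0.2). *Vegfb* RNA was therefore up in *Smyd1-KO* hearts but a smaller share beside *Vegfa*. The other 3 ratios overlapped between the genotypes. The differences were -0.97 for *Pgf* to *Vegfa* (exact permutation *P*=0.2, adjusted 0.3, and -1.35 without *Smyd1-KO* heart 1), 0.27 for *Vegfc* to *Flt4* (exact permutation *P*=0.5, adjusted 0.6, and 0.040 without that heart) and 0.32 for *Nrp1* to *Nrp2* (exact permutation *P*=0.6, adjusted 0.6, and 0.65 without that heart).

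In whole hearts, more cells of a type and more RNA per cell cannot be told apart. The receptors were therefore also expressed per heart relative to 25 endothelial and endocardial markers, all of which were tested and detected. The mean log2 CPM of these markers was 4.75, 4.99 and 5.13 in *Smyd1-KO* and 4.86, 4.83 and 4.63 in WT hearts, which overlapped (difference 0.18, exact permutation *P*=0.3). *Cdh5* (VE-cadherin, a defining endothelial junction gene) had 137 ± 25.7 CPM against 138 ± 13.7 CPM in WT, and *Pecam1* (CD31) had 65.6 ± 14.4 CPM against 48.0 ± 6.09 CPM (SD, n = 3 each).

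Relative to these markers, *Flt1* was at 1.81, 1.98 and 2.17 in *Smyd1-KO* and at 0.85, 1.15 and 1.16 in WT hearts on the log2 scale. *Kdr* was at 2.79, 2.98 and 3.05 against 2.29, 2.55 and 2.47. Neither overlapped between the genotypes, and the differences were 0.94 for *Flt1* and 0.50 for *Kdr* (exact permutation *P*=0.1 each, the smallest possible, and 0.25 adjusted over the 5 receptors). The difference on this scale was 0.24 for *Flt4*, 0.052 for *Nrp1* and -0.27 for *Nrp2*, and these hearts overlapped (exact permutation *P*=0.3, 0.9 and 0.4). Without *Smyd1-KO* heart 1 the difference of *Nrp2* was -0.54, and without WT heart 3 that of *Flt4* was 0.36, each with no overlap left (exact permutation *P*=0.1, the smallest possible). Relative to the markers of the same heart, *Flt1* and *Kdr* were thus higher in every *Smyd1-KO* heart, while the markers themselves moved unequally. *Robo4*, *Sox17*, *Cldn5* and *Sox7* (4 of 25) were upregulated, where 2.86% of all tested genes were. *Etv2* (1 of 25) was downregulated, where 1.42% were. At an unadjusted *P* under 0.05 by edgeR, 9 of the 25 were higher and 5 lower, against 13.1% and 11.9% of all tested genes. *Robo4*, which encodes a receptor that steadies vessels, had a log2 fold change of 1.64 (adjusted *P*=0.00664 by edgeR), and *Sox17*, a transcription factor of endocardium and arteries, 1.24 (adjusted *P*=0.0129 by edgeR). Among the markers named after their values were seen, the endocardial genes *Nfatc1* and *Npr3* had log2 fold changes of -0.83 and -0.52 (adjusted *P*=0.0687 and 0.0567 by edgeR), and *Tal1* and *Lmo2*, transcriptional regulators of early endothelium and blood, had -0.82 and -0.46 (adjusted *P*=0.0516 and 0.0740 by edgeR). In these 4 genes every *Smyd1-KO* heart lay below every WT heart. They and *Etv2* are part of the mean of the 25 markers, of which 16 had positive and 9 negative log2 fold changes. The receptors were not set against a mean without these genes. Which endothelial cells were present was not measured, and its part in the receptor levels was not tested.

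*Vegfa* was set against 18 cardiomyocyte markers in the same way, since myocardium is its main known source. Its log2 level relative to their mean was -0.36, -0.81 and -0.93 in *Smyd1-KO* and -2.67, -2.17 and -1.75 in WT hearts. The hearts did not overlap and the difference was 1.49 (exact permutation *P*=0.1), slightly above that of *Vegfa* alone. *Smyd1-KO* heart 1, which had the least *Vegfa* of its genotype, had the most relative to these markers, because its markers were lowest. The mean of the markers overlapped between genotypes (difference -0.074, exact permutation *P*=1.0). None of the 18 was called by edgeR, where 2.86% of all tested genes were upregulated and 1.42% downregulated. At an unadjusted *P* under 0.05 by edgeR, 1 was higher and 1 lower, against 13.1% and 11.9% of all tested genes. Named after its values were seen, the higher gene was *Nppa* (log2 fold change 1.44, adjusted *P*=0.0814 by edgeR), whose genotypes overlapped. The lower gene, named in the same way, was *Myh6* (-0.71, adjusted *P*=0.172 by edgeR), with no overlap. Leaving out each heart in turn gave differences of *Vegfa* relative to the markers from 1.25 to 1.72.

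**Figure D4:**
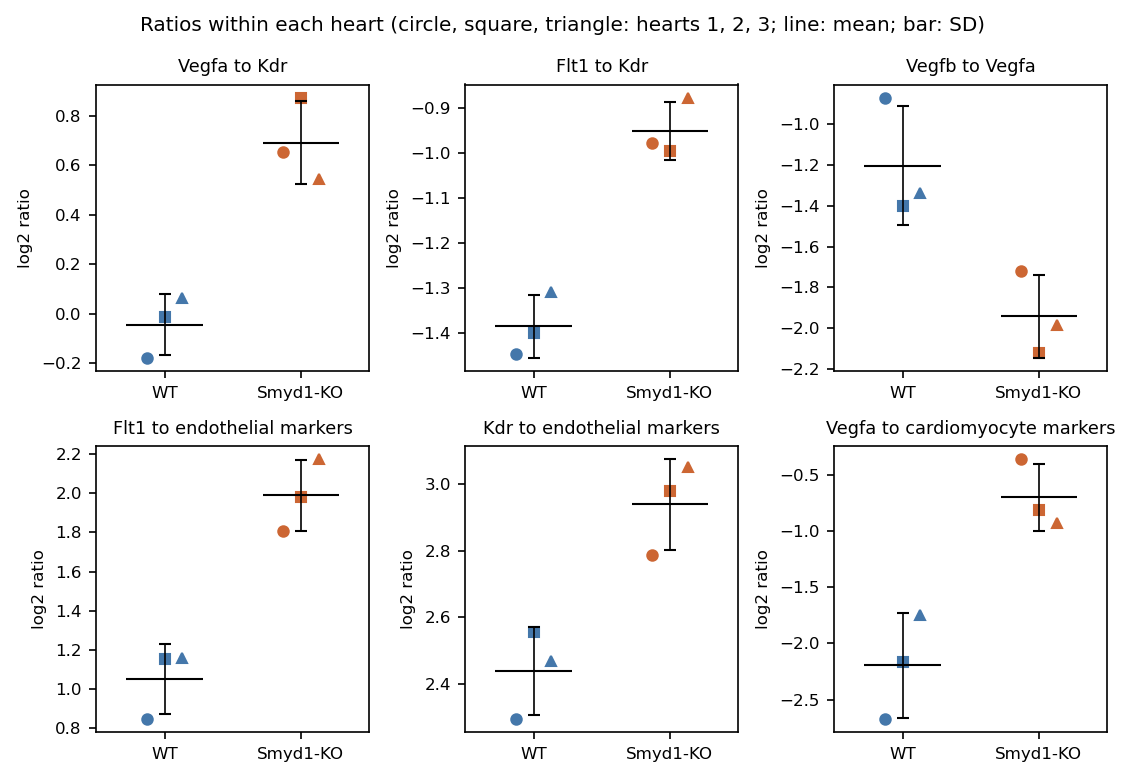
Log2 ratios within each heart (y axis) for WT hearts (blue) and *Smyd1-KO* hearts (orange), with the mean as a line and the SD of 3 hearts as a bar; the lower row sets *Flt1*, *Kdr* and *Vegfa* against the mean log2 CPM of cell type markers. The 6 panels show only the comparisons in which the genotypes do not overlap, and the comparisons that overlap are not drawn. The *Smyd1-KO* hearts are higher except for *Vegfb* to *Vegfa*. Several panels share *Vegfa*, *Flt1* or *Kdr* and are not separate observations.

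Markers of other cell types were measured in the same hearts. The 8 epicardial and proepicardial markers summed to 270.1 to 477 CPM per *Smyd1-KO* heart, against 161 to 196 CPM per WT heart. All 8 had positive log2 fold changes. Of the 8, 1 was upregulated, *Krt19*, a keratin of the mesothelium, where 2.86% of all tested genes were. The 13 erythroid markers summed to 24.7 to 283 CPM per *Smyd1-KO* heart, against 756 to 1003 CPM per WT heart, with 3 of 13 downregulated, where 1.42% of all tested genes were, and *Epb42* was at 0 in *Smyd1-KO* heart 1. The myeloid markers were near the detection limit in both genotypes, at summed levels of 0.945 to 1.78 CPM, and 5 of the 8 were too low to test. Endoderm and hepatic markers (9 tested) and neural crest and pharyngeal mesenchyme markers (7 of 8 tested) had no gene called by edgeR. Among all tested genes, 2.86% were upregulated and 1.42% downregulated. At an unadjusted *P* under 0.05 by edgeR, 1 endoderm gene was lower and 1 neural crest gene higher, against 11.9% and 13.1% of all tested genes. The summed levels of both lists overlapped (146 to 169.8 against 91.5 to 177 CPM, and 184 to 289.7 against 171 to 372 CPM). The part of any of these cell types in the levels of the VEGF genes was not tested.

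The rest of the VEGF pathway was followed in 5 lists that hold 108 further genes, 107 of them tested. In these, 11 genes were upregulated and 1 was downregulated, where 2.86% and 1.42% of all tested genes were. All of the upregulated genes but *Sema3g* came from 2 of the lists. The lists were chosen with earlier results of these data known, so their counts are no independent evidence. The list of VEGF receptor signaling holds the adaptors, kinases and phosphatases that act inside the cell below the receptors. Of its 46 genes none was upregulated by edgeR, and at an unadjusted *P* under 0.05 there were 8 higher and 6 lower genes, where 13.1% of all tested genes were higher and 11.9% lower at that level. The downregulated gene was *Nos3*, the endothelial nitric oxide synthase, which fell from 35.6 ± 6.22 CPM in WT to 19.8 ± 1.71 CPM (SD, n = 3 each, log2 fold change -0.85, adjusted *P*=0.0252 by edgeR). The median log2 fold change of the list was 0.034. DESeq2 called 3 genes of this list in either direction, edgeR without *Smyd1-KO* heart 1 also 3, and edgeR without *Smyd1-KO* heart 2, *Smyd1-KO* heart 3, WT heart 1 or WT heart 2 called none, so the call of *Nos3* rests on these hearts.

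Genes known to respond to VEGF in endothelial cells were listed with earlier results of these data known, so their calls are no independent evidence. Of 20 genes, 5 were upregulated, where 2.86% of all tested genes were, none was downregulated or had an unadjusted *P* under 0.05 in that direction, and the median log2 fold change was 0.44. *Esm1*, which encodes the tip cell proteoglycan endocan, averaged 9.54 ± 2.14 CPM over the *Smyd1-KO* hearts and 0.778 ± 0.481 CPM over the WT hearts (SD, n = 3 each). On the log2 scale it rose by 3.60 (standard error 0.492, adjusted *P*=0.0127 by edgeR). *Kcne3*, a potassium channel subunit of tip cells, rose from 1.51 ± 0.259 to 12.4 ± 1.16 CPM (log2 fold change 3.04, standard error 0.188, adjusted *P*=0.000869 by edgeR). *Pdgfb*, the growth factor with which endothelial cells recruit mural cells, rose from 5.93 ± 1.55 to 19.1 ± 3.84 CPM (log2 fold change 1.69, standard error 0.233, adjusted *P*=0.0129 by edgeR). The other upregulated genes were *Igfbp3*, an insulin-like growth factor binding protein, and *Nr4a1*, an immediate early nuclear receptor. Other well-known genes of the list did not pass. *Apln*, which encodes the tip cell peptide apelin, had a log2 fold change of 1.70 (adjusted *P*=0.0940 by edgeR), the Notch ligand gene *Dll4* 0.65 (adjusted *P*=0.0636 by edgeR), and *Angpt2*, which encodes a ligand of the receptor of *Tek*, -0.11 (adjusted *P*=0.720 by edgeR). The choice of these last 3 followed a look at their values. The count of 5 fell to 3 without *Smyd1-KO* heart 2, to 2 without WT heart 3 and to 1 without WT heart 2, and DESeq2 called 7.

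Of 20 other angiogenic ligands and receptors, 5 were upregulated, where 2.86% of all tested genes were, and none was downregulated, where 1.42% were, or had an unadjusted *P* under 0.05 in that direction. The median log2 fold change was 0.15. *Adm*, which encodes the vessel peptide adrenomedullin, rose from 12.9 ± 1.19 to 39.5 ± 9.37 CPM (SD, n = 3 each, log2 fold change 1.62, adjusted *P*=0.00664 by edgeR). *Robo4*, already given among the markers, is also on this list. *Acvrl1*, the endothelial receptor ALK1 for bone morphogenetic proteins, had a log2 fold change of 0.74 (adjusted *P*=0.0192 by edgeR). The chemokine gene *Cxcl12* and its scavenging receptor gene *Ackr3* completed the 5. DESeq2 and edgeR without *Smyd1-KO* heart 1 each called 5 genes of this list. edgeR called 2 without *Smyd1-KO* heart 2, *Smyd1-KO* heart 3, WT heart 1 or WT heart 3, and none without WT heart 2.

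Partners of the neuropilins and of VEGF-C were covered by the last 2 lists. Of 15 tested class 3 semaphorin and plexin genes, which share the neuropilins with VEGF, 1 was upregulated, *Sema3g*, from 9.28 ± 1.02 to 14.5 ± 0.336 CPM (SD, n = 3 each, log2 fold change 0.65, adjusted *P*=0.0368 by edgeR). None was downregulated. Among all tested genes, 2.86% were upregulated and 1.42% downregulated. At an unadjusted *P* under 0.05 by edgeR there were 3 higher and 2 lower genes, against 13.1% and 11.9% of all tested genes. The median of the 15 was 0.026. *Sema3e* and *Sema3b*, named after their values were seen, did not overlap between the genotypes, with log2 fold changes of 1.60 and 0.58 (adjusted *P*=0.101 and 0.172 by edgeR). *Sema3g* was not called when any heart other than *Smyd1-KO* heart 1 was left out. None of the 6 genes that process the VEGF-C precursor was called by edgeR, limma voom or DESeq2, with 1 higher and 1 lower at an unadjusted *P* under 0.05 by edgeR, and their median was -0.31.

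**Figure D5:**
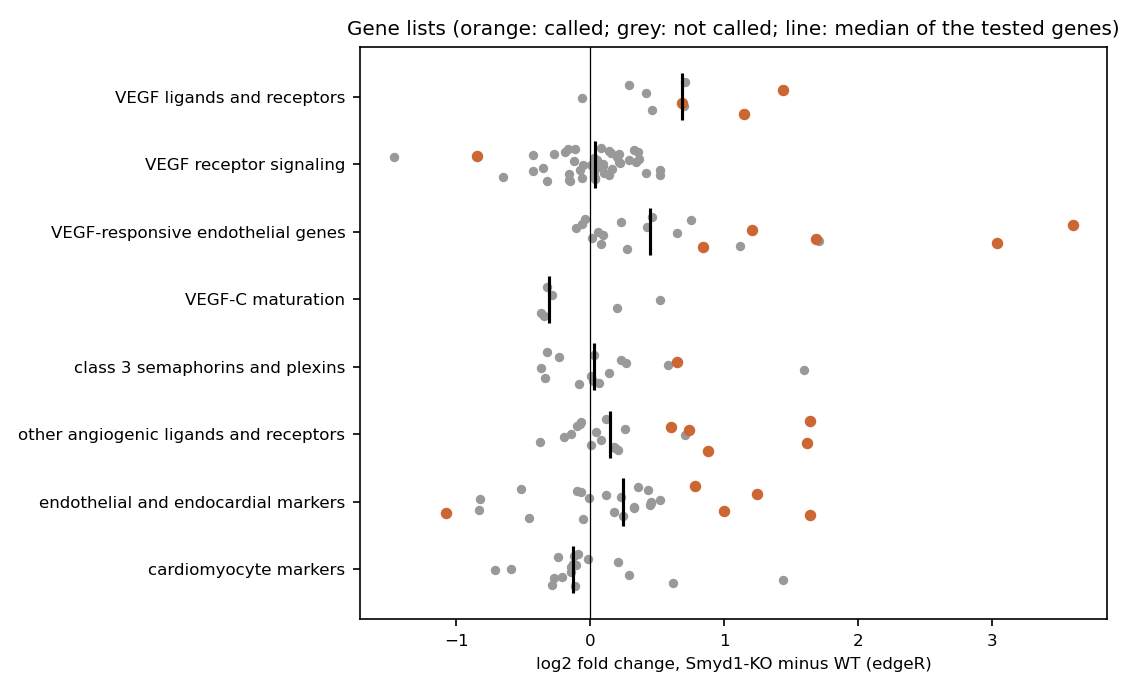
Log2 fold change between *Smyd1-KO* and WT hearts (x axis, edgeR) of each tested gene in the VEGF set, the 5 pathway lists and 2 marker lists (rows), with called genes in orange, the others in grey and the median of each list as a black line. The VEGF ligands and receptors have a median of 0.68, receptor signaling 0.034, and VEGF-responsive genes 0.44.

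*Vegfa* is a textbook target of HIF, so 20 HIF factors and target genes other than the 9 were measured beside it. Of these, 15 were upregulated, where 2.86% of all tested genes were, and the median log2 fold change of factors and targets together was 1.48. Whether HIF has a part in the level of *Vegfa* was not tested. Among the smallest adjusted *P*-values were those of *Pfkfb3*, an activator of glycolysis, with a log2 fold change of 1.64 (adjusted *P*=0.000393 by edgeR), of the mitophagy gene *Bnip3* with 1.90 (adjusted *P*=0.000694 by edgeR) and of *Egln3*, an oxygen-sensing prolyl hydroxylase, with 2.51 (adjusted *P*=0.000869 by edgeR). *Ankrd37*, with 2.33, tied with *Egln3* on the adjusted *P*. *Hif1a* itself was the downregulated gene, at 146, 155 and 136 CPM in the *Smyd1-KO* hearts, against 224, 221 and 214 CPM in the WT hearts (log2 fold change -0.59, standard error 0.0804, adjusted *P*=0.0123 by edgeR). At an unadjusted *P* under 0.05 by edgeR, 18 of the 20 were higher and 2 lower, against 13.1% and 11.9% of all tested genes. The other lower gene, named after its values were seen, was the target *Pfkfb4* (log2 fold change -0.51, adjusted *P*=0.111 by edgeR). Its genotypes did not overlap. HIF is regulated mainly at the level of protein stability, which RNA does not show. This list was composed with the response of such genes in these hearts already known, and it is no independent evidence.

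The genes with profiles most like *Vegfa*, *Flt1* and *Kdr* over the 6 hearts were sought among 13049 tested genes whose log2 CPM averaged at least 1, by the same root-mean-square difference. For *Vegfa* they were *Sesn2*, a stress-induced sestrin (0.0984), *Gpt2*, the mitochondrial alanine aminotransferase (0.140), and *Proser2* (0.142). *Sesn2* stood at 39.5, 62.0 and 52.3 CPM in the *Smyd1-KO* hearts, against 18.6, 19.9 and 18.8 CPM in the WT hearts, which puts *Smyd1-KO* heart 1 lowest and heart 2 highest, as for *Vegfa*. For *Flt1* they were *Loxl2*, a lysyl oxidase of the extracellular matrix (0.0995), *H2-Q4* (0.103) and *Fhad1* (0.103), where reads of *H2-Q4* can be shared with near-identical genes of its family and its value is uncertain. For *Kdr* they were *Mpp2*, a membrane-associated guanylate kinase family member (0.0498), *Nrbp2* (0.0614) and *Epb41l1*, a membrane skeleton protein (0.0690). Such likeness describes the order of 6 hearts in 2 genotypes.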

How the data were processed

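RNA-seq was compared in 3 *Smyd1-KO* and 3 WT hearts at E9.5, grouped by the genotype in the sample labels. Poly A RNA was sequenced as paired-end reads, and the submitters' processing notes name STAR, mm10 and DESeq2. The authors deposited raw counts per gene, without normalization, which were used here. Their table of normalized values for the same hearts was not used. The counting tool, annotation release and strand setting are not given in the sources used here, so reads of overlapping genes may be shared; 80 exonic bases of *Nrp1* overlap *Mir1903*. No molecular identifiers are named. The labels do not say whether embryos were littermates, and *P*-values measure the spread between these hearts. All 6 columns of counts were matched to a sample by name.

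Counts were fitted in R 4.3.3 with edgeR 4.0.16 (filterByExpr, TMM factors of 0.979 to 1.04, quasi-likelihood test, Benjamini-Hochberg adjustment over 19372 genes). The thresholds for a call were 0.05 for the adjusted *P* and 0.5 for the size of the log2 fold change. CPM use TMM library sizes, and log2 CPM a prior count of 2. Standard errors are the log2 fold change divided by the square root of the F statistic. The fits were tested on simulated data. Ratios were compared by exact permutation. Gene models came from GENCODE M21 (GRCm38) and transcript starts from RefSeq. Alternatives were DESeq2 1.42.0, limma 3.58.1 voom, RLE or upper-quartile factors, other filters, no mitochondrial or hemoglobin genes, no fold limit, a prior count of 0.5, the marker median, each heart left out in turn, and a block for the replicate number. All 9 genes are named, with up to 3 called genes of smallest adjusted *P* per list, the 3 most similar profiles for *Vegfa*, *Flt1* and *Kdr*, and the genes said to be named otherwise; *Igfbp3*, *Nr4a1*, *Cxcl12*, *Ackr3*, *Sox7*, *Etv2*, *Cdh5*, *Pecam1* and *Vegfd* complete short counts or lists. The 9 genes and the lists were chosen with earlier results of these data known.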

Additional observations from a re-analysis of the deposited data

How the results depend on the processing

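Of the 135 log2 fold changes of the 9 genes under 15 alternatives, 116 kept their direction and their side of the threshold, 12 lost the call, 5 gained it and 2 changed sign. Only the 3 called genes could lose a call. *Vegfa* lost it under 2, *Vegfb* under 5 and *Flt1* under 5 of the 15 alternatives. limma voom, RLE and upper-quartile factors, at least 10 counts in every heart, and leaving out mitochondrial and hemoglobin genes called *Vegfa*, *Vegfb* and *Flt1*, as reported. No filter on low counts added *Kdr*, and no limit on the fold change added *Flt4*. DESeq2 called 5 of the 9 genes and 1749 genes in all, against 3 and 830. With a heart left out, 0 to 4 of the 9 genes were called, 97 to 1256 of all genes and 1 to 15 genes of the 5 pathway lists, against 12. The changes of sign came with the same step: the log2 fold change of *Nrp1* ran from -0.058 to 0.45, that of *Nrp2* from -0.25 to 0.064, *Nrp1* relative to endothelial markers from -0.15 to 0.20, and *Nrp1* to *Nrp2* from -0.015 to 0.65. The cause was not tested, beyond the smaller number of hearts. The labels do not say whether same-numbered hearts were pairs. Their deviations from the genotype means had correlations of -0.22, -0.054 and -0.18, which with 3 hearts per genotype cannot settle this. With the replicate number as a block, edgeR called 1 of the 9 genes (*Vegfa*), 59 genes in all (0.305%) and 1 gene of the pathway lists. In that fit 6 of the 9 genes were higher at an unadjusted *P* under 0.05 by edgeR. Without the block 13.1% of all tested genes were higher at that level, and the share with it is not given here. Same-numbered pairs gave the ratios the same differences, with a smallest possible *P* of 0.25.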
